A study of Mus musculus with 6 samples.

Results

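The collagen genes described here are those outside the set that builds the cartilage fibril and the hypertrophic matrix. They were taken by gene name, as every row named Col, a number, a and a number, without Col2a1, Col9a1, Col9a2, Col9a3, Col10a1, Col11a1, Col11a2 and Col27a1. The rule found 36 genes among 43346 listed, or 36 of the 44 with such a name, and all 36 had enough counts to be tested. The study compared the polyadenylated RNA of primary epiphyseal chondrocytes, the cartilage cells at the ends of growing bones, from 3 Girk3-null mice and 3 wild type mice. All animals were 5 days old, of strain C57BL/6 and labelled male, and each library is called a biological replicate in the series text. Girk3-null (Girk3-/-) animals lack the channel protein encoded by Kcnj9, which forms part of the potassium channels that G proteins open, and the construction of the null allele is not given in the sources used here. Cells were freed by collagenase and no sorting step is given in the labels. In such bulk RNA, fewer cells of a type and less RNA per cell cannot be told apart.

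Collagens are built from chains wound into a triple helix, and each gene encodes a single chain. Fibrillar collagens I, III and V form the banded fibrils of bone, tendon, skin and perichondrium. Collagen IV forms the sheet-like network of basement membranes, and collagen VI forms beaded filaments close to the cell surface, in cartilage mostly around the chondrocyte. The fibril-associated (FACIT) collagens sit on or beside fibrils, the multiplexins lie in or near basement membranes, and the transmembrane collagens cross the plasma membrane.

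Total counts were 60392837, 44864868 and 34279516 in Girk3-null replicates 1, 2 and 3, and 44291556, 50361885 and 42252651 in wild type replicates 1, 2 and 3. The 12 chondrocyte markers checked, Acan and Sox9 among them, were all above 0, with a summed level of 66564 to 108297 CPM in Girk3-null and 42343 to 73427 CPM in wild type libraries. CPM here are counts scaled to a fixed library total and corrected by TMM factors. Kcnj9 had 0 counts in all 6 libraries, so it could not check the genotype labels. The sex label went against the transcripts in 5 libraries. The 4 Y-linked genes checked together had 16088, 1 and 7 counts in Girk3-null replicates 1, 2 and 3 and 0 in each wild type library, and Xist had 19 counts in Girk3-null replicate 1 and at least 67346 in the others. The sample titles carry numbers that fall below or above 200. What they stand for is not given, and differences are also given within the libraries numbered below 200 (Girk3-null replicate 1 against wild type replicates 1 and 2) and above 200 (Girk3-null replicates 2 and 3 against wild type replicate 3).

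Levels of different genes were compared per length, on the deposited RPKM (reads scaled by gene length and library total). Col6a1, a chain of collagen VI, was the most abundant of the 36 genes, at 1215, 1219 and 1365 RPKM in Girk3-null libraries, against 1165, 1117 and 1486 RPKM in wild type libraries. Over all 44 collagens only Col2a1 had a higher mean. Col6a3 came next with a mean of 581 RPKM over the 6 libraries, ahead of Col1a1 at 369.7 RPKM, Col6a2 at 339 RPKM and Col3a1 at 304 RPKM. Col6a3 lay above Col1a1, Col6a2 and Col3a1 in every library. The order of Col1a1, Col6a2 and Col3a1 changed between libraries, so it is not beyond the spread. These 5 genes held 76.0% to 77.3% of the summed RPKM of the 36 in Girk3-null libraries and 75.1% to 79.7% in wild type libraries. The mean was over 10 RPKM in 15 genes, 1 to 10 RPKM in 10 and less than 1 RPKM in 11. The 5 lowest, Col4a3, Col19a1, Col4a4, Col6a4 and Col6a5, were under 0.1 RPKM.

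**Figure D1:**
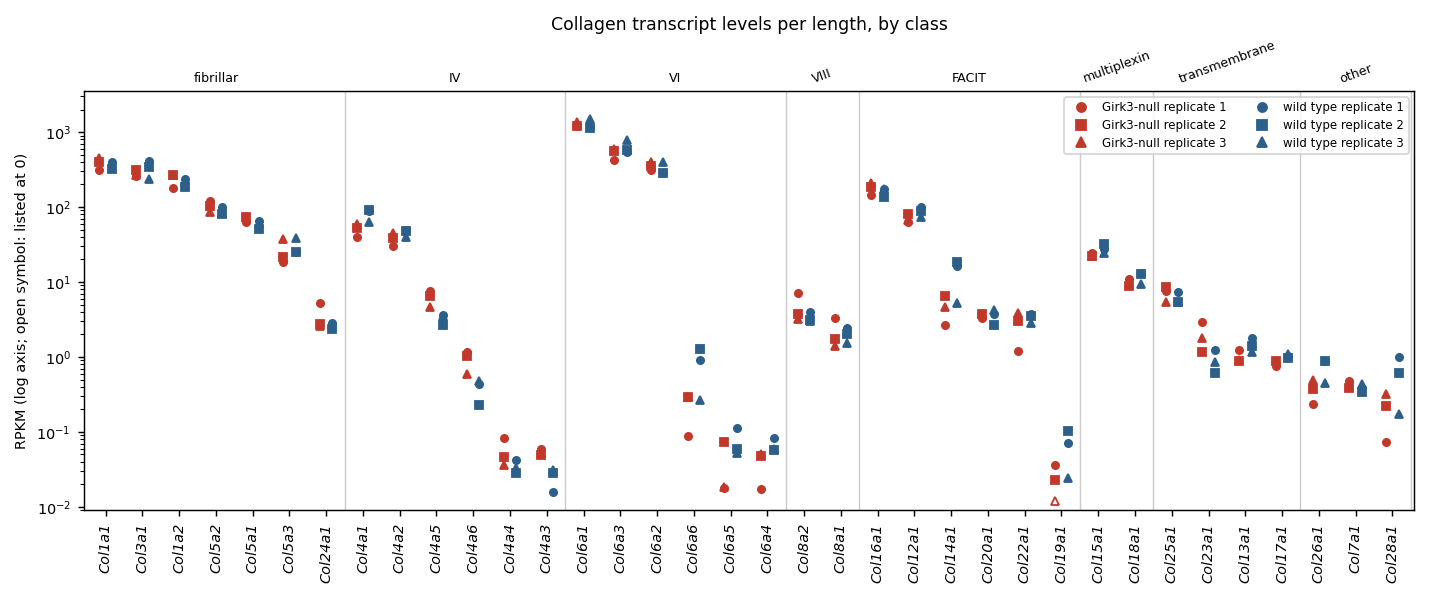
Deposited RPKM of each of the 36 collagen genes (log axis), grouped by class and ordered by mean level within a class, with the 3 Girk3-null libraries left of the 3 wild type libraries for each gene. Col6a1 stands highest, with a mean of 1261 RPKM, and Col4a3 lowest, with a mean of 0.0394 RPKM. The open symbol is the Girk3-null library in which Col19a1 was listed at 0.

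The comparison of genotypes asked which of these genes differed in chondrocytes of Girk3-null mice. In edgeR's quasi-likelihood test 0 of the 36 had an adjusted p under 0.05, and over all genes 1 of 17554 did (0.0057%). At an unadjusted p under 0.05 there were 10 collagen genes, where 14.5% of all tested genes reached it. Of these, 6 were higher in Girk3-null libraries (Col4a5, Col4a6, Col4a3, Col23a1, Col5a1 and Col5a2), beside 7.49% of all genes, and 4 were lower (Col14a1, Col4a1, Col6a6 and Col26a1), beside 7.02%. The median log2 fold change of Girk3-null over wild type was 0.01 over the 36 genes and 0.01 over all tested genes, and 18 of the 36 estimates were positive. The size of the estimate passed 1 on the log2 scale in 8 of the 36 genes, 4 higher and 4 lower, beside 3.78% of all genes. Every library of a genotype lay above every library of the other in 8 genes. Among them 6 were higher in Girk3-null libraries (Col4a3, Col4a5, Col4a6, Col24a1, Col5a1 and Col23a1), beside 9.86% of all genes, and 2 were lower (Col4a1 and Col15a1), beside 10.2%. DESeq2 called 4 of the 36, with Col4a5, Col4a6 and Col23a1 higher, beside 1.03% of all genes called higher, and Col6a6 lower, beside 0.9% called lower. DESeq2 gave no adjusted p for Col4a3, Col6a4 and Col19a1, and limma-voom called 0 of the 36.

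**Figure D2:**
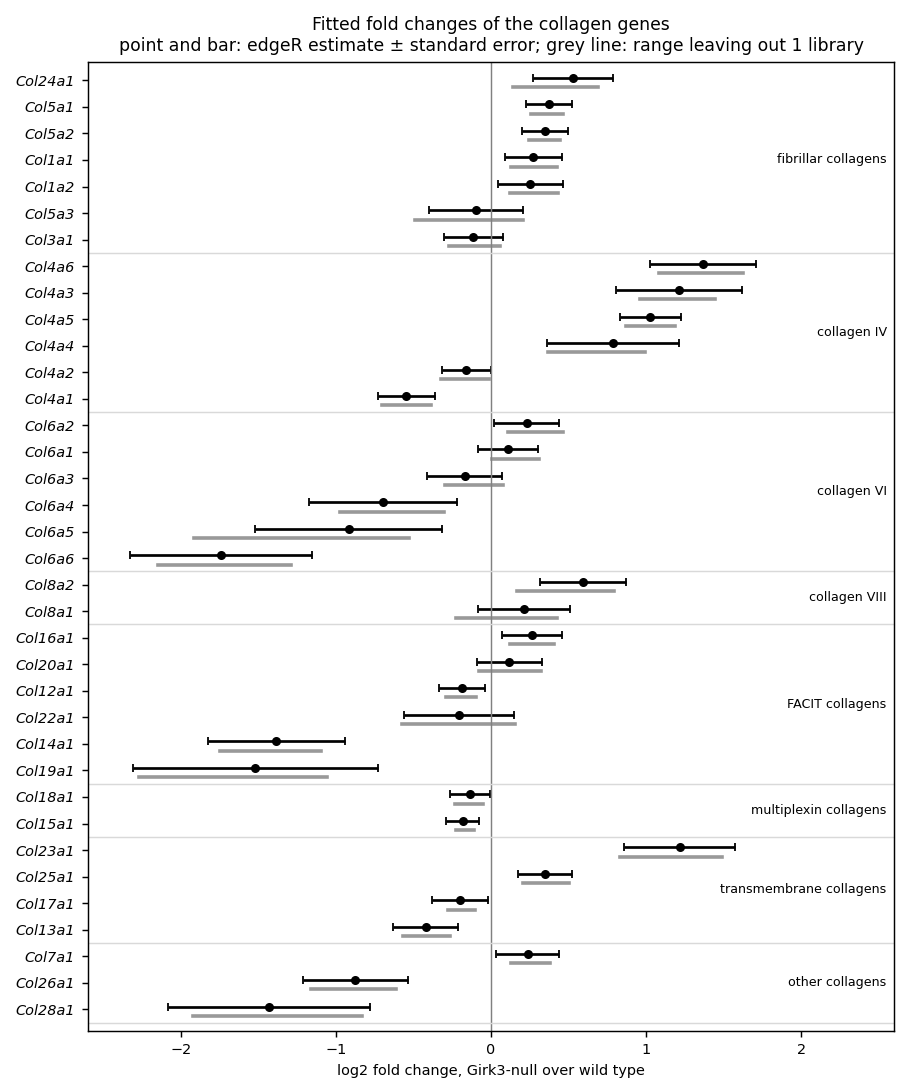
Log2 fold changes (Girk3-null over wild type, x axis) of the 36 genes by class, with the edgeR estimate and its standard error as point and bar and the range over fits without 1 library as a grey line. The chains of collagen IV run from -0.55 for Col4a1 to 1.37 for Col4a6, and Col6a6 has the lowest estimate of all, at -1.74.

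Within collagen IV the estimates of Col4a1 and Col4a2 were negative and those of the other chains positive. The genes lie in head-to-head pairs that are read outward from a common start region, and the chains of Col4a1 and Col4a2 form the network found in nearly all basement membranes, while the chains of Col4a3, Col4a4, Col4a5 and Col4a6 form networks of particular tissues such as the kidney glomerulus and smooth muscle. In the table, Col4a1 and Col4a2 start 21 bases apart and share 22 bases on chromosome 8, Col4a4 and Col4a3 start 72 bases apart on chromosome 1, and Col4a6 and Col4a5 start 1309 bases apart on chromosome X (mm10). The start regions of Col4a1 and Col4a2 and of the X-linked pair, whose estimates had opposite signs, are shown here, from RefSeq (GRCm38.p6), 250 bases before to 50 bases after each start, 5′ to 3′ on the strand of the gene. Capitals mark matches, on either strand, to the CCAAT box (spelled CCAAT) and to the GC box (spelled GGGCGG).
Col4a1 (chr8:11312777-11313076, minus strand): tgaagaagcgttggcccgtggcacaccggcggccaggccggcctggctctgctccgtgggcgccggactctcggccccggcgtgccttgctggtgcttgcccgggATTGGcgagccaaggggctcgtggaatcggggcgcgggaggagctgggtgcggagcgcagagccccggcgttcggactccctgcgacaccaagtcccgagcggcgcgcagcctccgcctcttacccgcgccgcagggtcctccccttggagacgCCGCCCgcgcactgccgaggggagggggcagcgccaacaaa
Col4a2 (chr8:11312555-11312854, plus strand): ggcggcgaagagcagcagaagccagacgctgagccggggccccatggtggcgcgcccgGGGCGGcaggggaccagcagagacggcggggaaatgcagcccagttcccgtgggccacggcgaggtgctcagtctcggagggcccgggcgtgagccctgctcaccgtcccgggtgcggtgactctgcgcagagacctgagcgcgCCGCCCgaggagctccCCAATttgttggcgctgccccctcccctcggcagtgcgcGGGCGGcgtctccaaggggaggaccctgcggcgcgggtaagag
Col4a6 (chrX:141474027-141474326, minus strand): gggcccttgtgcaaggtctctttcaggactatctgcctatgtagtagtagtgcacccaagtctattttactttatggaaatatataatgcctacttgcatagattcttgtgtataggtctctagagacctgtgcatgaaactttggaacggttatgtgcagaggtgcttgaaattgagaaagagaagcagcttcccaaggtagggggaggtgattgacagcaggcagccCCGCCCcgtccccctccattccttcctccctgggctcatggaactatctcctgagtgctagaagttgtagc
Col4a5 (chrX:141475169-141475468, plus strand): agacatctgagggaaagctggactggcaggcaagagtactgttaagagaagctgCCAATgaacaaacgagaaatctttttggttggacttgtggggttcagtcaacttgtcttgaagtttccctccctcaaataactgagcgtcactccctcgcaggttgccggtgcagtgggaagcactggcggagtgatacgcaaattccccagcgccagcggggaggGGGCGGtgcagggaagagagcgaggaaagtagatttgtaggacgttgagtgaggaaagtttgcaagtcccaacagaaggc
The windows of Col4a1 and Col4a2 overlap by 78 bases and share 1 match to the GC box, while 842 bases lie between those of Col4a6 and Col4a5. The Col4a1 and Col4a2 windows are 74.0% and 73.7% G or C, against 48.3% for Col4a6 and 52.7% for Col4a5 and a mean of 53.8% over all 32817 mouse promoter windows. A CCAAT box was found in the windows of Col4a1, Col4a2 and Col4a5 and in 37.4% of all windows, and a GC box in all 4 shown and in 35.6% of all windows. None of the 4 held the TATA element (spelled TATAAA), which 13.6% of all windows held, and no matches to different motifs overlapped in them. Of the 36 genes, 29 had a window, 31 windows in all, of which 11 held a CCAAT box, 19 a GC box and 3 a TATA element.

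Col4a5 (ENSMUSG00000031274, chromosome X, 141475385 to 141689234, mm10) had the smallest p of the 36 genes. It measured 52.2, 44.9 and 33.1 CPM in Girk3-null replicates 1, 2 and 3, against 23.2, 16.8 and 24.1 CPM in the wild type libraries. Every Girk3-null library lay above every wild type library. The log2 fold change was 1.03 ± 0.20 (standard error). Its edgeR adjusted p was 0.291, and that of the 14 alternatives ran from 0.00124 in DESeq2 to 0.814. Its partner Col4a6 (ENSMUSG00000031273, chromosome X, 141165403 to 141474076, mm10) measured 9.31, 8.32 and 5.02 CPM in Girk3-null libraries, against 3.24, 1.69 and 3.90 CPM in wild type libraries. Its groups did not overlap either, and the log2 fold change was 1.37 with a standard error of 0.34 (edgeR adjusted p = 0.291, 0.0108 to 0.814 over the alternatives). Both X-linked chains were highest in Girk3-null replicate 1, the library with Y-linked counts, and without it the log2 fold changes were 0.87 for Col4a5 and 1.19 for Col4a6. Within the title numbers below 200 the differences in log2 CPM were 1.40 for Col4a5 and 1.97 for Col4a6, and above 200 they were 0.68 and 0.72. Per length, Col4a5 was 6.4 to 7.84 times as abundant as Col4a6 in Girk3-null libraries and 7.32 to 11.8 times in wild type libraries.

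Col4a1 (ENSMUSG00000031502, chromosome 8, 11198423 to 11312826, mm10), the most abundant collagen IV chain, went the other way. It measured 278, 369 and 436 CPM in Girk3-null libraries, against 573, 572 and 438 CPM in wild type libraries. The groups did not overlap, but Girk3-null replicate 3 and wild type replicate 3 lay next to each other. The log2 fold change was -0.55 with a standard error of 0.18 (edgeR adjusted p = 0.291, 0.103 to 0.814 over the alternatives). It was -1.04 in log2 CPM within title numbers below 200 and -0.13 above 200. Col4a2, its partner chain, measured 205, 259.9 and 316 CPM in Girk3-null libraries, against 309, 290.4 and 274 CPM in wild type libraries, which overlapped. Its log2 fold change was -0.16 with a standard error of 0.16 (edgeR adjusted p = 0.637). Leaving out Girk3-null replicate 1 gave -0.01. The ratio of Col4a1 to Col4a2 in RPKM was 1.32, 1.38 and 1.34 in Girk3-null libraries, against 1.80, 1.91 and 1.55 in wild type libraries, with no overlap.

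Col4a3 and Col4a4, the chains that join Col4a5 in the network of the kidney glomerulus, were near the limit of what was counted. Col4a3 had 36, 22 and 18 counts in Girk3-null libraries, against 7, 14 and 13 counts in wild type libraries, and its log2 fold change was 1.21 with a standard error of 0.41 (edgeR adjusted p = 0.291). A noncoding gene that overlaps Col4a3, C430014B12Rik, had 52 counts against the 110 of Col4a3 over all libraries. Without a stated strand setting the reads of these genes cannot be told apart. Col4a4 measured 0.894, 0.504 and 0.405 CPM in Girk3-null libraries, against 0.423, 0.276 and 0.366 CPM in wild type libraries, with a log2 fold change of 0.79 ± 0.42 (standard error; edgeR adjusted p = 0.399). On the log2(RPKM + 0.1) and log2(RPKM + 1) scales the median of the 6 chains was 0.25 and 0.03, against 0.91 in the fit of counts. Col4a3 and Col4a4 lie below both added constants. In shares of the class, Col4a5 made up 9.60%, 6.60% and 4.2% of collagen IV RPKM in Girk3-null libraries, against 2.56%, 1.92% and 3.26% in wild type libraries. Col4a1 and Col4a2 together made up the bulk, at 88.8% to 95.2% in Girk3-null and 96.2% to 97.9% in wild type libraries.

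**Figure D3:**
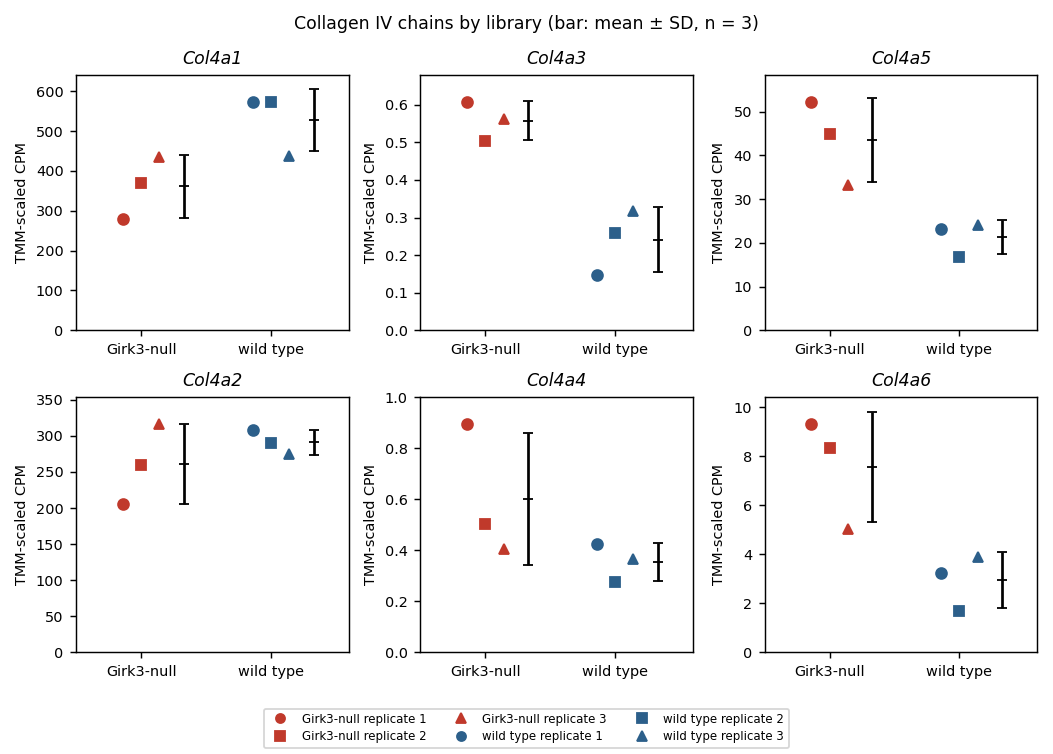
TMM-scaled CPM of the 6 collagen IV chains in each library, with the mean and SD of 3 libraries as a bar and a separate y axis from 0 for each gene. Points of Col4a3, Col4a5 and Col4a6 lie higher in all Girk3-null than in all wild type libraries, Col4a1 lies lower, and Col4a2 and Col4a4 overlap.

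Endothelial markers moved with Col4a1, a main chain of vessel basement membrane. Of 15 such markers 13 had negative and 2 positive estimates, the median log2 fold change was -1.18, and none was at 0. Their summed level was 96.7, 177 and 192 CPM in Girk3-null libraries, against 259.9, 319.7 and 230.0 CPM in wild type libraries. Pericyte and smooth muscle markers had 9 of 12 estimates below 0 and a median of -0.67, and their sums overlapped, at 818 to 1527 CPM in Girk3-null and 870.4 to 1533 CPM in wild type libraries. Cspg4 alone gave 621 to 1291 CPM of these sums in Girk3-null and 557 to 1310 CPM in wild type libraries. The part of endothelial, pericyte and smooth muscle cells in the difference of Col4a1 was not tested. Among 20 other basement membrane genes (laminins, nidogens, perlecan and their like) edgeR called 0, and the median was -0.24. At an unadjusted p under 0.05 there were 9 of the 20, beside 14.5% of all tested genes, with 4 higher (7.49% of all genes) and 5 lower (7.02%). DESeq2 called 1 of the 20 higher, beside 1.03% of all genes, and 3 lower, beside 0.9%. Lamc3, a laminin gamma chain, measured 11.1, 2.45 and 3.02 CPM in Girk3-null libraries, against 1.10, 0.515 and 1.32 CPM in wild type libraries (log2 fold change 2.52, edgeR adjusted p = 0.291). Lama2, the laminin chain of muscle and peripheral nerve, measured 10.6, 14.4 and 14.5 CPM in Girk3-null libraries, against 40.7, 52.8 and 16.0 CPM in wild type libraries (log2 fold change -1.47, edgeR adjusted p = 0.291). Pxdn, the peroxidase that crosslinks collagen IV, measured 83.6, 80.5 and 75.5 CPM in Girk3-null libraries, against 120.3, 147 and 95.9 CPM in wild type libraries (log2 fold change -0.60, edgeR adjusted p = 0.291). All 3 had groups that did not overlap, with Lamc3 higher and Lama2 and Pxdn lower in Girk3-null libraries, but they were named for their small p. In the whole list 4 of 20 genes were higher without overlap, beside 9.86% of all tested genes, and 5 were lower, beside 10.2%.

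The fibrillar collagens had 5 positive estimates of 7 and a median log2 fold change of 0.27. Col1a1 (ENSMUSG00000001506, chromosome 11, 94936224 to 94953042, mm10), the main chain of collagen I of bone and tendon, measured 2093, 2727 and 3189 CPM in Girk3-null libraries, against 2435, 1946 and 2244 CPM in wild type libraries. The groups overlapped, and the log2 fold change was 0.27 with a standard error of 0.19 (edgeR adjusted p = 0.489). Its partner chain Col1a2 had a log2 fold change of 0.25 ± 0.21 (standard error; edgeR adjusted p = 0.568). The ratio of Col1a1 to Col1a2 in RPKM was 1.74, 1.5 and 1.72 in Girk3-null libraries, against 1.68, 1.75 and 1.47 in wild type libraries. The ratios of the genotypes overlapped. Col5a1 and Col5a2 encode chains of the collagen V that starts and limits collagen I fibrils, and both had positive estimates. Col5a1 measured 539.7, 641 and 672 CPM in Girk3-null libraries, against 511, 398 and 521 CPM in wild type libraries, without overlap (log2 fold change 0.37 ± 0.15, standard error, edgeR adjusted p = 0.316). Col5a2 measured 1165, 1029 and 884 CPM in Girk3-null libraries, against 889.9, 712 and 819.8 CPM in wild type libraries (log2 fold change 0.35 ± 0.15, standard error, edgeR adjusted p = 0.340). The groups of Col5a2 overlapped, with Girk3-null replicate 3 below wild type replicate 1.

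Col5a3, the third chain of collagen V, had an estimate of -0.10, which turned to 0.11 without Girk3-null replicate 1, 0.02 without Girk3-null replicate 2 and 0.20 without wild type replicate 3. Col3a1, the collagen of stretchable tissue and young fibrils, measured 2609.7, 3139 and 2811 CPM in Girk3-null libraries, against 3788, 3101 and 2373 CPM in wild type libraries. Its estimate of -0.11 turned to 0.06 without wild type replicate 1, and the difference was -0.39 within title numbers below 200 and 0.32 above 200. The ratio of Col3a1 to Col1a1 in RPKM overlapped, at 0.59 to 0.83 in Girk3-null and 0.71 to 1.07 in wild type libraries. Col24a1, a minor fibrillar chain found in bone, measured 40.9, 21.3 and 21.4 CPM in Girk3-null libraries, against 20.6, 16.4 and 21.0 CPM in wild type libraries. Its groups did not overlap, but only Girk3-null replicate 1 stood clear of the wild type libraries, and the log2 fold change was 0.53 with that library and 0.14 without it. Most osteoblast and osteocyte markers also stood higher, with 8 of 10 tested estimates above 0 and a median of 0.89. Their sums were 687, 436 and 293 CPM in Girk3-null libraries, against 206, 174 and 203 CPM in wild type libraries. Smpd3 alone gave 489, 272 and 146 CPM of these sums, against 65.8, 55.7 and 89.4 CPM. The 2 negative estimates were those of Dmp1 and Ifitm5. Dmp1 was lower without overlap, at 5.59, 13.5 and 13.0 CPM in Girk3-null libraries, against 38.2, 30.8 and 16.9 CPM in wild type libraries. None of the 11 listed was at 0 in every library. Their part in the fibrillar estimates was not tested.

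The genes that process procollagen had 18 positive and 5 negative estimates of 23 tested, a median of 0.22, and 0 called by edgeR. At an unadjusted p under 0.05 there were 4, all higher in Girk3-null libraries, or 17.4% of the list beside 14.5% of all tested genes. DESeq2 called 2 of the list higher, beside 1.03% of all genes. Fkbp10, an endoplasmic reticulum isomerase needed for collagen crosslinks, measured 445, 403 and 386 CPM in Girk3-null libraries, against 288, 251 and 317 CPM in wild type libraries (log2 fold change 0.53, edgeR adjusted p = 0.291). Pcolce2, an enhancer of procollagen cleavage, measured 140.2, 107 and 94.6 CPM in Girk3-null libraries, against 75.9, 72.1 and 81.4 CPM in wild type libraries (log2 fold change 0.57, edgeR adjusted p = 0.291). Crtap, part of the prolyl 3-hydroxylation complex, measured 136, 137 and 117 CPM in Girk3-null libraries, against 93.1, 92.7 and 112 CPM in wild type libraries (log2 fold change 0.39, edgeR adjusted p = 0.291). None of the 3 genes overlapped between genotypes, but they were named for their small p. In the whole list 4 of 23 genes were higher without overlap, or 17.4%, beside 9.86% of all tested genes. None was lower without overlap, beside 10.2% of all tested genes. The list's median was 0.11 with library size as the only scaling, 0.09 on log2(RPKM + 0.1) and 0.08 on log2(RPKM + 1). The first 2 settings also shifted the median of all tested genes by -0.11.

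Collagen VI supplied the larger part of the collagen RPKM outside the cartilage set in every library, and its main chains overlapped between the genotypes. Its share was 59.7%, 56.9% and 59.2% of the summed RPKM of the 36 genes in Girk3-null libraries, against 53.5%, 57.7% and 65.7% in wild type libraries. Col6a1 (ENSMUSG00000001119, chromosome 10, 76708792 to 76726168, mm10) measured 5423, 5492 and 6393 CPM in Girk3-null libraries, against 4786, 4534 and 6713 CPM in wild type libraries (log2 fold change 0.11 ± 0.20, standard error, edgeR adjusted p = 0.805). Col6a2 gave 0.23 ± 0.21 and Col6a3 gave -0.17 ± 0.24 (log2 fold change ± standard error), and Col6a3 turned to 0.08 without wild type replicate 3. All 3 chains were highest or next to highest in wild type replicate 3. The ratio of Col6a3 to Col6a2 in RPKM did not overlap, at 1.33, 1.61 and 1.5 in Girk3-null libraries, against 1.88, 2.01 and 1.98 in wild type libraries. That of Col6a1 to Col6a2 overlapped, at 3.87, 3.50 and 3.41 in Girk3-null libraries, against 4.05, 3.90 and 3.75 in wild type libraries. How often the ratios of other gene pairs lie apart was not counted.

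The 3 chains that can take the place of Col6a3 in the trimer had negative estimates. Col6a6 (ENSMUSG00000043719, chromosome 9, 105687809 to 105828160, mm10) measured 0.827, 2.80 and 2.87 CPM in Girk3-null libraries, against 7.90, 10.96 and 2.51 CPM in wild type libraries. Wild type replicates 1 and 2 were high and wild type replicate 3 lay among the Girk3-null libraries. The log2 fold change was -1.74 with a standard error of 0.59 (edgeR adjusted p = 0.291, 0.0494 in DESeq2, and up to 0.814). Within title numbers below 200 the difference in log2 CPM was -3.43, and above 200 it was 0.17. Col6a4 and Col6a5 were rare, with 119 and 143 counts over all libraries and log2 fold changes of -0.70 and -0.92 (edgeR adjusted p = 0.492 and 0.478).

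The FACIT collagens were led by Col16a1 and Col12a1 in level, and Col14a1 had the smallest p of the class. Col14a1 (ENSMUSG00000022371, chromosome 15, 55307750 to 55520803, mm10), whose chain coats fibrils of tendon, skin and perichondrium, measured 19.1, 47.1 and 35.1 CPM in Girk3-null libraries, against 107, 119 and 37.5 CPM in wild type libraries. As with Col6a6, wild type replicates 1 and 2 stood apart and wild type replicate 3 lay within the range of the Girk3-null libraries. The log2 fold change was -1.38 with a standard error of 0.44 (edgeR adjusted p = 0.291, 0.0561 to 0.814 over the alternatives). The difference in log2 CPM was -2.56 within title numbers below 200 and 0.12 above 200. Col16a1, found beside fibrils in cartilage and skin, measured 1008, 1291 and 1510.4 CPM in Girk3-null libraries, against 1096, 849 and 1224 CPM in wild type libraries, which overlapped (log2 fold change 0.27 ± 0.19, standard error, edgeR adjusted p = 0.516). Col12a1, which binds collagen I fibrils, had a log2 fold change of -0.19 ± 0.15 (standard error; edgeR adjusted p = 0.551).

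Col22a1, the collagen of the junction between muscle and tendon, measured 11.4, 28.7 and 37.7 CPM in Girk3-null libraries, against 32.4, 30.2 and 26.9 CPM in wild type libraries. Only Girk3-null replicate 1 was low, and the log2 fold change was -0.21 with it and 0.15 without it. Without that library the median of the FACIT collagens was 0.02, against -0.20 with all 6. Col20a1 had a log2 fold change of 0.12, which turned to -0.08 without wild type replicate 2, and its 4090 counts overlap the gene 9230112E08Rik, which had 4707. Col19a1 had 87 counts in all, 0 of them in Girk3-null replicate 3, and a log2 fold change of -1.52 ± 0.79 (standard error; edgeR adjusted p = 0.388). Col21a1, also of this class, was not found by name among the genes listed, so it could not be analysed here.

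Wild type replicates 1 and 2 were also high for 2 collagens outside these classes. Col28a1, a collagen of peripheral nerve, measured 0.371, 1.10 and 1.65 CPM in Girk3-null libraries, against 4.57, 2.74 and 0.878 CPM in wild type libraries (log2 fold change -1.43 ± 0.65, standard error, edgeR adjusted p = 0.353). Its difference in log2 CPM was -3.11 within title numbers below 200 and 0.60 above 200. Col26a1 measured 1.40, 2.27 and 3.09 CPM in Girk3-null libraries, against 4.79, 4.73 and 2.73 CPM in wild type libraries (log2 fold change -0.87 ± 0.34, standard error, edgeR adjusted p = 0.312). Of the 18 genes with a lower Girk3-null estimate, 13 had their highest library in wild type replicate 1 or 2. A gene taken for a lower Girk3-null estimate is likely to have its highest library in wild type. The same count over all genes was not made, so no pattern is read from it.

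Markers of nerve sheath, muscle and red blood cells were also highest in wild type replicates 1 and 2. The 8 Schwann cell markers all had negative estimates, with a median log2 fold change of -0.38 and sums of 58.9, 82.3 and 106 CPM in Girk3-null libraries, against 339.9, 209 and 83.1 CPM in wild type libraries. The 14 skeletal muscle markers had 13 negative estimates, a median of -1.34 and sums of 52.7, 15.8 and 25.5 CPM in Girk3-null libraries, against 91.8, 90.5 and 35.2 CPM in wild type libraries. The 10 erythroid markers tested all had negative estimates, with a median of -1.18 and sums of 56.4, 160.3 and 90.3 CPM in Girk3-null libraries, against 213, 279 and 79.0 CPM in wild type libraries. Perichondrial, fibroblast and tendon markers had 10 of 17 estimates below 0 and a median of -0.16. Their sums were 6624, 3674 and 3662 CPM in Girk3-null libraries, against 2840.1, 3087 and 4025 CPM in wild type libraries. Dcn alone gave 5313, 2600 and 2680 CPM of these sums in Girk3-null libraries, against 1688, 1888 and 3053 CPM in wild type libraries. Wild type replicates 1 and 2 had the lowest sums of this list but its highest mean log2 CPM. The direction thus depends on the measure, and the sums follow mostly Dcn. No marker of these lists was at 0 in every library. Their part in the estimates of Col14a1, Col6a6, Col28a1 and Col26a1 was not tested. Of 21 fibril-associated matrix partners, edgeR called 0 and the median was -0.06. At an unadjusted p under 0.05 there were 5, or 23.8% beside 14.5% of all tested genes, with 1 higher (7.49% of all genes) and 4 lower (7.02%). Mfap5, a microfibril protein, measured 2.14, 6.76 and 4.89 CPM in Girk3-null libraries, against 16.4, 22.1 and 6.88 CPM in wild type libraries (log2 fold change -1.73, edgeR adjusted p = 0.291). Postn, the periostin of perichondrium and periosteum, measured 152, 173 and 147 CPM in Girk3-null libraries, against 504, 512 and 137 CPM in wild type libraries (log2 fold change -1.29, edgeR adjusted p = 0.291). Both were high in wild type replicates 1 and 2. Sparc, a collagen-binding protein of bone and cartilage, had a log2 fold change of 0.55 (edgeR adjusted p = 0.315).

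**Figure D4:**
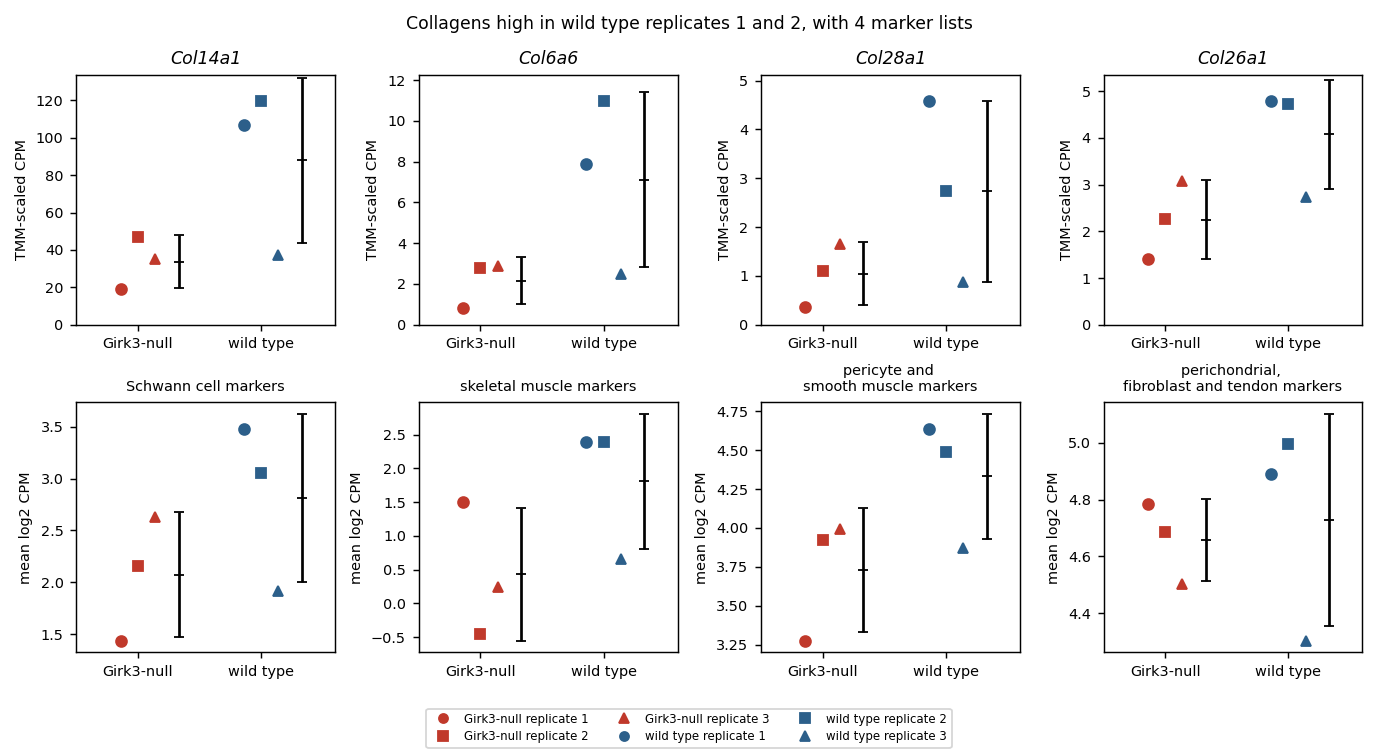
Upper row, TMM-scaled CPM of Col14a1, Col6a6, Col28a1 and Col26a1 in each library with axes from 0; lower row, the mean log2 CPM of 4 marker lists, with axes that do not start at 0. Bars are mean ± SD of 3 libraries. Wild type replicates 1 and 2 are the highest libraries in all 8 panels. In summed CPM, most of it from Dcn, the perichondrial, fibroblast and tendon list was instead lowest in these 2 libraries. The pericyte and smooth muscle sum, most of it from Cspg4, was highest in wild type replicate 3. The genes were chosen for this plot after their values were seen.

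Col23a1, a transmembrane collagen, stood higher in Girk3-null libraries. Col23a1 (ENSMUSG00000063564, chromosome 11, 51289920 to 51583918, mm10) measured 16.99, 6.88 and 11.1 CPM in Girk3-null libraries, against 6.75, 3.29 and 5.05 CPM in wild type libraries. The groups did not overlap, although Girk3-null replicate 2 and wild type replicate 1 lay close together. The log2 fold change was 1.21 with a standard error of 0.36 (edgeR adjusted p = 0.291, 0.0393 in DESeq2, and up to 0.814), and 0.83 without Girk3-null replicate 1. The difference in log2 CPM was 1.84 within title numbers below 200 and 0.78 above 200. Col25a1, the most abundant transmembrane collagen, measured 70.8, 81.9 and 53.1 CPM in Girk3-null libraries, against 63.2, 46.5 and 52.0 CPM in wild type libraries, which overlapped (log2 fold change 0.35 ± 0.18, standard error, edgeR adjusted p = 0.378). Col13a1 and Col17a1, a chain of the neuromuscular junction and a chain of the epidermal hemidesmosome, had log2 fold changes of -0.42 and -0.20 (edgeR adjusted p = 0.371 and 0.598).

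Both chains of collagen VIII, the network-forming collagen of vessel walls and of the cornea, depended on Girk3-null replicate 1. Col8a2 measured 33.01, 17.1 and 15.4 CPM in Girk3-null libraries, against 16.9, 12.8 and 13.8 CPM in wild type libraries, and its log2 fold change was 0.59 (standard error 0.28) with that library and 0.17 without it (edgeR adjusted p = 0.360 and 0.707). Col8a1 had a log2 fold change of 0.21 with it and -0.22 without it. The multiplexins differed little. Col15a1, of vessel and muscle basement membrane, measured 159.9, 146 and 149 CPM in Girk3-null libraries, against 166, 189 and 162 CPM in wild type libraries, without overlap (log2 fold change -0.18 ± 0.10, standard error, edgeR adjusted p = 0.419). Col18a1, the source of endostatin, had a log2 fold change of -0.14 ± 0.13 (standard error; edgeR adjusted p = 0.618), and its 21219 counts share 8825 bases of gene span with Slc19a1, which had 7558 counts. Col7a1, the anchoring fibril collagen of skin, had a log2 fold change of 0.24 (edgeR adjusted p = 0.585).

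The 2 ranges of title numbers gave the same sign for 23 of the 36 genes and opposite signs for 13. The difference in the upper range rests on 1 wild type library, replicate 3. The difference in the lower range rests on Girk3-null replicate 1 alone, which was the lowest of the 6 libraries in 13 genes and the highest in 10. That library had 16088 Y-linked and 19 Xist counts, so genotype and sex of the transcripts cannot be told apart in the lower range. Wild type replicate 2 was the lowest in 16. Col4a3, Col4a5, Col4a6 and Col23a1 were higher in Girk3-null libraries by over 0.6 in log2 CPM in both ranges, with Col4a3 at 1.44 below 200 and 0.67 above 200. With the title number range as a covariate in edgeR, 0 of the 36 genes were called.

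**Figure D5:**
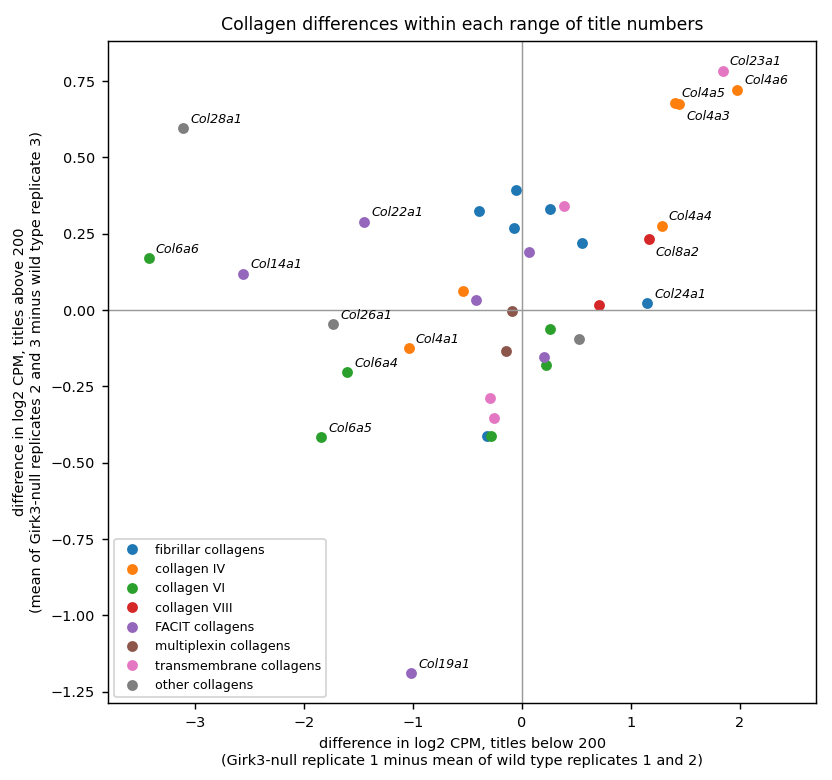
Difference in log2 CPM, Girk3-null minus wild type, within title numbers below 200 (x axis) and above 200 (y axis), 1 point per gene, coloured by class. Points in the upper right and lower left have the same sign in both ranges (23 genes). Col6a6, Col14a1 and Col28a1 lie at the upper left, far below 0 on the x axis and at 0.12 to 0.60 on the y axis.

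Set beside the 8 cartilage collagens left out by the rule, the 36 genes took a smaller share of collagen RPKM in Girk3-null libraries. They made up 21.4%, 18.0% and 17.1% of all collagen RPKM in Girk3-null libraries, against 24.5%, 28.2% and 23.4% in wild type libraries, without overlap. Their share of all counts overlapped, at 2.45%, 2.93% and 3.06% in Girk3-null libraries, against 2.94%, 2.7% and 3.14% in wild type libraries. The cartilage set took 7.24%, 10.1% and 11.3% of all counts in Girk3-null libraries, against 6.70%, 5.08% and 7.72% in wild type libraries. Of its 8 estimates 7 were positive, with a median log2 fold change of 0.57, and edgeR called 0 of them. Most of the summed RPKM of the cartilage set came from Col2a1 in every library. Col2a1 gave 8392, 11820 and 13737 of 11981, 17055 and 19436 RPKM in Girk3-null libraries. In wild type libraries it gave 6937, 5196 and 8887 of 11515, 8727 and 13298 RPKM, so its levels overlapped. The share of collagen RPKM thus depends largely on Col2a1, and it was not computed without that gene. The difference between the 2 sets was not tested.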

How the data were processed

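Polyadenylated RNA was measured in 3 Girk3-null and 3 wild type libraries, grouped by the genotype label and numbered in deposit order within a genotype, so a shared number pairs no samples. Raw counts per gene are given in 1 column of the deposited table for each library. The table also holds RPKM that the authors scaled by library total and gene length, per the labels' protocols and the file headers. The submitters' processing notes name bcl2fastq 2.19.0, STAR 2.5.2b and the build mm10. How reads were counted, with which annotation and strand setting, is not given in these sources, and overlapping genes are uncertain.

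All genes were tested together with edgeR 4.0.16 (TMM, quasi-likelihood F-test, genotype alone) in R 4.3.3, on the 17554 genes that filterByExpr kept (minimum count 10, minimum total 15). Adjusted p are Benjamini-Hochberg values over these genes, with a threshold of 0.05, and were computed as well with DESeq2 1.42.0 and limma 3.58.1. Each standard error is the estimate over the root of its F statistic. Log2 CPM had a prior count of 2. The fit was tested on simulated data. Levels of a gene between libraries are TMM-scaled CPM, and levels between genes are the deposited RPKM. Intervals and p-values reflect 3 libraries per genotype and total counts of 34279516 to 60392837. Where nothing was counted, up to 3 counts (0.0497 to 0.0875 CPM by library, here without TMM factors) remain possible, from counting error only.

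The members, gene lists, markers and alternatives were chosen with earlier results of these data known. The naming rule took the 6 collagens with the smallest p, the collagen with the highest mean RPKM of each class, and the 3 genes with the smallest p of each partner list, and other members are given by class. Marker lists named only here were macrophage (median log2 fold change -0.21, 10 tested) and epithelial (-0.42, 4 tested), and the chondrocyte list had a median of 0.51. The values of 1 single marker gene are not reported here. Promoter windows come from RefSeq (GRCm38.p6). The 14 alternatives were another scaling (RLE or library size only), no filter, DESeq2, limma-voom, limma on log2(RPKM + 0.1) or log2(RPKM + 1), the title number range as a covariate, and leaving out each library.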

Additional observations from a re-analysis of the deposited data

How the results depend on the processing

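The number of collagen genes called by adjusted p was 0 in the main fit and stayed at 0 under 12 of the 14 alternatives. Without a filter it was 1 (Col4a5, adjusted p = 0.0374), and with DESeq2 it was 4. Over all genes edgeR called 1. This became 53 without a filter and 339 with DESeq2, 0 with library size only, limma-voom, either RPKM scale or the title number covariate, and 0 to 74 when 1 library was left out, with 74 reached without wild type replicate 3. The median log2 fold change of the collagens ran from -0.094 to 0.156 when 1 library was left out, with 0.156 reached without wild type replicate 3. Of the partner lists, the basement membrane genes had 4 calls with DESeq2 and 0 to 1 when 1 library was left out, the fibril-associated genes 0 to 1 when 1 library was left out, and the processing genes 2 with DESeq2. Leaving out 1 library turned the sign of 6 collagens, whose estimates then ran from -0.27 to 0.059 for Col3a1, -0.30 to 0.078 for Col6a3, -0.081 to 0.32 for Col20a1, -0.49 to 0.20 for Col5a3, -0.58 to 0.15 for Col22a1 and -0.22 to 0.43 for Col8a1. The cause was not tested. No other alternative turned the sign of a collagen gene. No paired analysis was possible because the replicate numbers follow the order of deposit and no label ties a Girk3-null to a wild type animal. Genes such as Col4a3, Col4a4, Col6a4, Col6a5 and Col19a1 had 87 to 143 counts over all libraries, so their estimates rest on few counts. The smallest difference that could be detected in them was not computed.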
